A study of Mus musculus with 4 samples.

Results

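Cytochrome P450 families 1 to 3 are the membrane-bound heme enzymes of the endoplasmic reticulum that oxidise drugs, pollutants, steroids and fatty acids in liver. The group was taken by symbol: every gene matched through a RefSeq identifier whose symbol starts with Cyp1, Cyp2 or Cyp3 followed directly by a letter. It held 63 of the 21469 genes matched in this way. Liver polyA RNA came from C57/BL6 mice that all carried the ClockΔ19 mutation (Clock-delta-19 in the labels) together with 2 transgenes, Scg2:tTA and tetO::Clock-HA. Doxycycline was given to every animal at 30 ug/ml in the drinking water, from 3 days before constant darkness, after entrainment to 12 h of light and 12 h of dark. In this system tTA made under the Scg2 promoter drives the Clock-HA transgene, and doxycycline shuts it off. Libraries were made at CT22, CT28, CT34 and CT40 (circadian time in hours), 1 per time, each from the equally pooled RNA of 3 animals. The labels used here give neither sex nor age, and the libraries hold no mice without the mutation, so nothing below compares genotypes. With 1 library per time no difference has a replicate check, and all intervals are 95% intervals that cover counting error only.

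A P450 takes electrons from cytochrome P450 oxidoreductase, partly with the help of cytochrome b5, and inserts an oxygen atom from molecular oxygen into its substrate. Family 1 is known for induction by the aryl hydrocarbon receptor, and several genes of families 2 and 3 for induction by the nuclear receptors CAR and PXR. Mouse liver P450 genes lie in clusters of close paralogues, several of which are known to be expressed mainly in females or mainly in males under the pattern of growth hormone secretion. The circadian clock is known to act on drug metabolism in liver through factors of the PAR bZIP family, which in turn act on CAR and its partners.

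The promoters of the close pairs are shown first because the results below turn on how near-identical copies differ within the same library. The 250 bases before the start were taken from RefSeq's promoter table for GRCm38.p6, which held an entry for 53 of the 63 genes; Cyp2g1 and Cyp2u1, named below, had no entry. The capitals in the next sequences mark the bases at which Cyp2a4 and Cyp2a5, and then Cyp2b9 and Cyp2b13, differ. Cyp2a4 (chr7:26306942-26307191, + strand) and Cyp2a5 (chr7:26835089-26835338, + strand) differed at 4 of 249 aligned bases, with the windows shifted by 1 base. Cyp2b9 (chr7:26173159-26173408, + strand) and Cyp2b13 (chr7:26061245-26061494, + strand) differed at 2 of 250.
Cyp2a4: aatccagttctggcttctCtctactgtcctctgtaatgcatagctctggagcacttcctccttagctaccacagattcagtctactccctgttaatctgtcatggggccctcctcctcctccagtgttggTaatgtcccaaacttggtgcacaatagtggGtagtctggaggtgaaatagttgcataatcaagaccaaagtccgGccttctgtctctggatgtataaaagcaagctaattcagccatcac
Cyp2a5: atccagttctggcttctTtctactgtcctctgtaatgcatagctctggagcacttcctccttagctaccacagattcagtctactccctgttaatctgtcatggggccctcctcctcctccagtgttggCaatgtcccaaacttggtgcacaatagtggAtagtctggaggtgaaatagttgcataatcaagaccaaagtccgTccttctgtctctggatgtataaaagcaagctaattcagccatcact
Cyp2b9: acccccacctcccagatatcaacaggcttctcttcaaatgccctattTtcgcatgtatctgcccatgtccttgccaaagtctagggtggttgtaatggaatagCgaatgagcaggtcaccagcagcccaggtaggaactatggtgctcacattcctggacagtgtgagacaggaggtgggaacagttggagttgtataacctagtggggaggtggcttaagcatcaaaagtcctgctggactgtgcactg
Cyp2b13: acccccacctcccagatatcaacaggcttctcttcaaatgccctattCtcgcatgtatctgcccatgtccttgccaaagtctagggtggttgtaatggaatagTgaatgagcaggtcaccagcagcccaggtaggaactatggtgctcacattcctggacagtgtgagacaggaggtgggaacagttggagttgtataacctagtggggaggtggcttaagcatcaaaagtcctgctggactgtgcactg

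Both pairs therefore offer almost the same letters upstream of the start, and the Cyp3a41a and Cyp3a41b windows differed at only 1 of 250 bases. Cyp2b10 (chr7:25897408-25897657, + strand), the classic CAR-induced gene and the widest-ranging member among those with few shared reads and a promoter entry, is shown with the letters GCGTG, the core of the aryl hydrocarbon receptor site, in capitals on either strand. Cyp3a11 (chr5:145879855-145880104, - strand), the main drug-metabolising Cyp3a enzyme of mouse liver, is shown with the nuclear receptor hexamer AGGTCA in capitals. The pairs and Cyp3a11 were chosen after their values were seen.
Cyp2b10: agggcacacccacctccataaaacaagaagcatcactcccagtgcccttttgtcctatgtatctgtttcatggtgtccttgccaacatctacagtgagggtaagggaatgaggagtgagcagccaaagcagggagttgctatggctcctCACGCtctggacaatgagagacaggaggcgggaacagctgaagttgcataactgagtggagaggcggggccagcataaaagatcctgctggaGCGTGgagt
Cyp3a11: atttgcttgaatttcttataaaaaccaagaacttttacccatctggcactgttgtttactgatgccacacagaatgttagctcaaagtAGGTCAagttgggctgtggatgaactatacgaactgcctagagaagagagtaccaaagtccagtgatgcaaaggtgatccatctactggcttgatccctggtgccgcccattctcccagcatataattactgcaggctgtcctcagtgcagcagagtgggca

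Motifs were searched on both strands from 250 bases before to 50 after the start, in 56 windows of the members and in all 32851 windows of the table. AGGTCA stood in 33.9% of the members' windows and 16.3% of all windows, and GCGTG in 19.6% and 32.4%. CACGTG, the E-box bound by CLOCK and BMAL1, stood in 1 member window, that of Cyp2j6, against 7.15% of all windows. The D-box letters TTATGTAA or TTACATAA stood in none, against 0.938% of all. TTCNNNGAA, the STAT site, stood in 3.57% of member windows and 8.30% of all. A pair of AGGTCA hexamers in direct repeat, spaced by 1 or by 4 bases, stood in none. These are matches of letters in a short window, many windows are from copies of each other, and distal sites were not searched.

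Gene reads per library numbered 16822747 at CT22, then 19092290, 18082170 and, for CT40, 19330865, as recovered from the deposited tables. The CT22 library stood apart in composition. Mitochondrial reads per 100 gene reads ran from 18.1 at CT22 through 10.2 and 6.72 to 6.48 at CT40, and the median log2 ratio of 5' to 3' read density over 4437 genes from 0.26 to 0.80. A trend in GC content and transcript length was fitted to each gene's log2 deviation from its own mean over the 4 libraries. It accounted for 32.8% of the variance of these deviations at CT22, 16.4% at CT34, 13.6% at CT40 and 1.01% at CT28. The counts of 2-fold ranges over the members, and named ranges that cross the 2-fold rule or move by over 1.5 times when this trend is removed, are given both ways. The labelled tissue was borne out by its markers: Alb, albumin, held 1586913 to 2007881 reads, and the 14 hepatocyte markers summed to between 3211408 and 3745877 scaled reads, against 9126 to 11355 for 20 markers of other liver cells. In bulk tissue, fewer cells of a type and less RNA per cell cannot be told apart.

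The 63 genes took 3.30% of gene reads at CT22, then 3.14% at CT28, 2.65% at CT34 and 2.93% at CT40. Of them, 3 had no read in any library (Cyp2j11, Cyp2j12 and Cyp2w1), 5 had 1 to 9 reads over the 4 libraries (Cyp2ab1, Cyp2b19, Cyp2b23, Cyp2c66 and Cyp2j13) and 12 had more but a mean under 100. These 12 were Cyp1a1, Cyp1b1, Cyp2c53-ps, Cyp2c65, Cyp2d11, Cyp2d12, Cyp2d34, Cyp2j8, Cyp2s1, Cyp2t4, Cyp3a16 and Cyp3a57. A gene without reads may still be expressed below what this depth can show, since a count of 0 allows up to 3 reads per library. The other 43 averaged 100 reads or more, the minimum used for ratios. The deposited tables give a lower and an upper value per transcript, and the upper one was read as including reads that other places can also claim, an inference from the values. In 20 of the 63 genes the upper value exceeded the lower by over 10%, 10 of them among the 43, and these are set apart below; over all genes above the same minimum the share was 7.95%. The nearest gene inside that limit was Cyp2c50, with an excess of 17.8%, and the nearest outside was Cyp3a59, with 9.43%.

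Per length, Cyp2e1 was the most abundant member in every library. Cyp2e1 oxidises ethanol and other small molecules around the central vein, and its level was 3383 RPKM (reads per kilobase of transcript, scaled to library size) at CT22, then 3644 at CT28, 2965 at CT34 and 3225 at CT40. Its mean of 3304 placed it 12th of all genes and made up 28.7% of the RPKM of the 63 members. Its scaled reads spanned 1.34-fold. Below it came Cyp3a11 at a mean of 899 RPKM, Cyp1a2, the caffeine-oxidising enzyme, at 706, Cyp2f2, known for periportal hepatocytes, at 680 and Cyp2d26 at 599. Cyp2c29 followed at 597, Cyp2a5, a coumarin hydroxylase, at 569, Cyp2a12 at 491, Cyp2c50 at 481 and Cyp2d9 at 415. The order below Cyp2e1 was not fixed over the libraries: Cyp2a5 ranked 2nd at CT28 and 10th at CT34, and Cyp2d26 ranked 10th at CT22 and 3rd at CT34. By subfamily, Cyp2c took 21.5% of the members' RPKM, Cyp2d 14.7%, Cyp2a 9.98%, Cyp3a 9.68% and Cyp1a 6.14%.

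**Figure D1:**
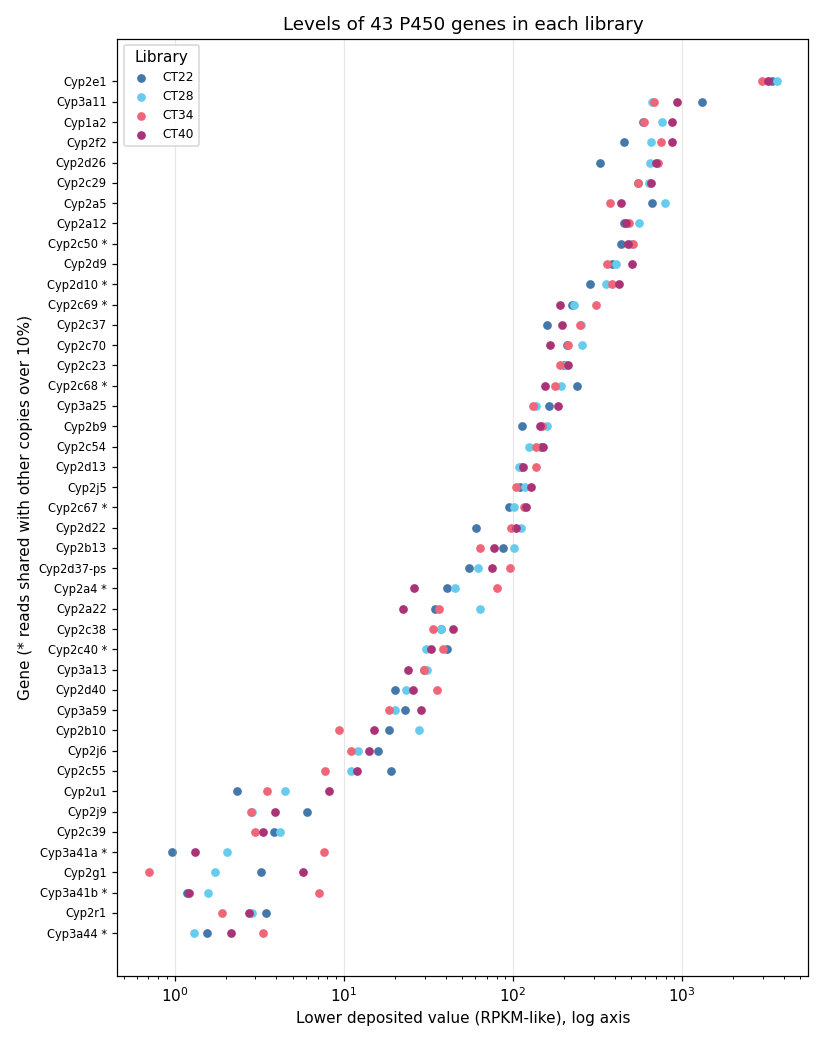
Levels of the 43 P450 genes that met the read minimum, as the lower deposited value (RPKM-like, log axis), 1 point per library, genes ordered by mean; * marks genes set apart for shared reads. Cyp2e1 lies apart at the top in all 4 libraries, and the points spread widest for Cyp2g1 and for Cyp3a41a and Cyp3a41b among the low genes.

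Reads were scaled between libraries by TMM, and a gene was counted as having a 2-fold range when its highest library was at least 2 times its lowest. By that rule 13 of the 43 members had a 2-fold range, against 12.7% of the 8911 genes that met the read minimum. Of the 13, 9 had few shared reads: Cyp2g1, Cyp2b10, Cyp2a22, Cyp2u1, Cyp2c55, Cyp2j9, Cyp2a5, Cyp3a11 and Cyp2r1. The other 4, Cyp3a41a, Cyp3a41b, Cyp2a4 and Cyp3a44, were set apart. The median range was 1.57-fold over the 43 members and 1.45-fold over all genes. This count leans on the CT34 library: without it 5 of 43 members had a 2-fold range, against 10.1% of all genes, and these were Cyp2a22, Cyp2g1, Cyp2j9, Cyp2u1 and Cyp3a11. With the GC and length trend removed 10 of 41 remained, against 8.19% of all genes; Cyp2c55, Cyp2r1 and Cyp3a11 dropped out.

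**Figure D2:**
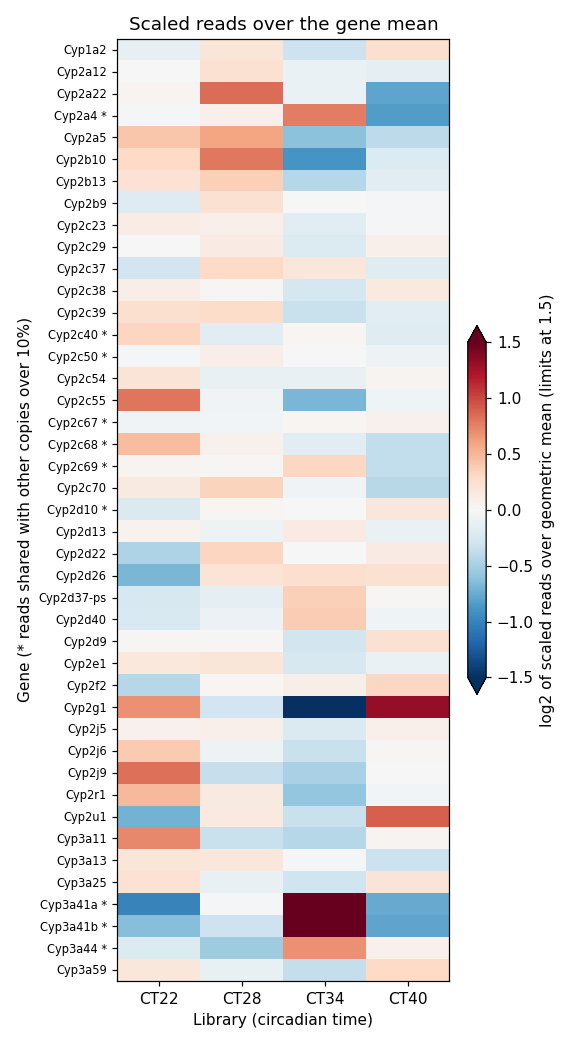
Scaled reads of the 43 genes in each library as log2 over the gene's geometric mean, in alphabetical order of subfamily; red is above and blue below the gene's mean, the colour limits are 1.5, and * marks genes set apart for shared reads. The CT34 column is blue for most Cyp2a, Cyp2b and Cyp2j genes and dark red for Cyp3a41a and Cyp3a41b.

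Of the 33 members with few shared reads, 19 were lowest at CT34, or 57.6%, against 19.6% of all genes, and 13 were highest at CT28, or 39.4% against 16.9%. Between CT22 and CT34, 12 h apart, 24 of the 33 were higher at CT22, or 72.7% against 47.1%, and the median log2 ratio was 0.29, against -0.04 over all genes. The low point moved with the GC and length correction. With the trend removed 13 of the 31 members with a known GC content were lowest at CT34 and 15 at CT22, against 18.2% and 39.5% of all genes, the median log2 ratio of CT22 to CT34 was -0.02, and 15 of 31 were higher at CT22; over all genes the corrected median was -0.06. The peak at CT28 did not move in this way: 14 of 31 were highest there after the correction, against 20% of all genes. Between CT28 and CT40 the members showed no lean, with a median log2 ratio of 0.00 and 18 of 33 higher at CT28.

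At least 2-fold higher at CT22 than at CT34 were 7 of the 43 members, against 3.10% of all genes: Cyp2g1, Cyp2c55, Cyp2j9, Cyp2b10, Cyp3a11, Cyp2r1 and Cyp2a5. With the trend removed 3 of 41 were, against 1.56%: Cyp2g1, Cyp2j9 and Cyp2b10. At least 2-fold lower at CT22 than at CT34 were 2, Cyp3a41a and Cyp3a41b, against 3.80%, and these copies share nearly all their reads. Between CT28 and CT40, 1 member was at least 2-fold higher at CT28, Cyp2a22, against 1.21%, and 1 at least 2-fold lower, Cyp2g1, against 1.05%.

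**Figure D3:**
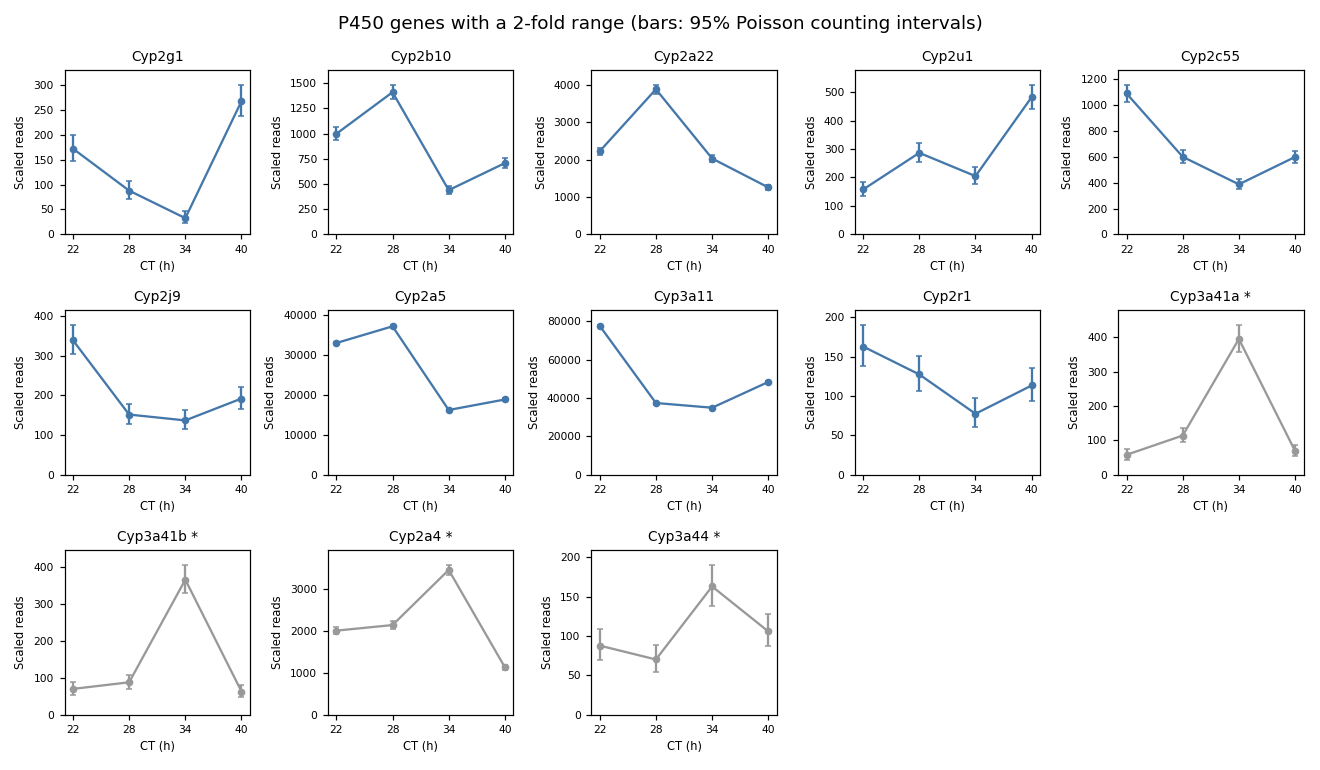
Scaled reads of the 13 members with a 2-fold range against circadian time (hours), each panel with its own linear axis from 0; bars are 95% Poisson counting intervals, blue marks genes with few shared reads and grey with * those set apart. The low genes such as Cyp2r1 carry wide bars, while Cyp3a41a and Cyp3a41b stand up at CT34 alone.

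The chromosome 7 cluster of Cyp2a, Cyp2b, Cyp2f, Cyp2g, Cyp2s and Cyp2t genes held 13 members over 1356 kb (mm9), of which 9 met the read minimum. Of these 9, 5 had a 2-fold range, against 12.7% of all genes, and 6 were highest at CT28, against 16.9%. Cyp2g1, a P450 best known from olfactory tissue, had 165 reads at CT22, then 89 at CT28, 32 at CT34 and 281 at CT40. It was high at CT40 and low at CT34, and its range of 8.22-fold (5.69 to 12.2) was the widest of the 43 members. Without CT34 the range was 3.05-fold and without CT40 5.29-fold. Its introns followed, with 37, 25, 8 and 90 reads in the same order of libraries. The gene lies at chr7:27593946-27606216 in mm9, on the + strand, with 9 exons. Only 4 of its 8 introns had junction reads. Its log2 ratio of 5' to 3' read density was -2.88, -2.03, -2.54 and -2.62. The reads therefore lay mostly in the 3' part and do not show the whole transcript.

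Cyp2b10 had 955 reads at CT22, then 1428 at CT28, 431 at CT34 and 742 at CT40. CT28 was the high library and CT34 the low one, a range of 3.21-fold (2.88 to 3.59), and 3.16-fold with the trend removed. Its introns held 103, 151, 40 and 38 reads, so the early libraries were high in introns as well, and CT40 was as low there as CT34. Part of its intron reads are shared between copies (upper over lower 1.46). Without CT34 the exon range was 1.99-fold, just short of the 2-fold rule.

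Cyp2a5 had 31530 reads at CT22, then 37580 at CT28, 15875 at CT34 and 19722 at CT40. The early libraries lay near each other and the late ones lay 2.30-fold (2.25 to 2.34) below the peak at the widest, 2.22-fold with the trend removed. The ratio of CT22 to CT34 was 2.04 as counted and 1.78 with the trend removed, and without CT34 the range was 1.98-fold. Its intron reads went another way, with 684, 695, 427 and 1315, highest at CT40, and part of them are shared between copies (upper over lower 1.41). Junction reads, a second count from the same libraries, followed the exons with 27532, 33631, 13904 and 16965.

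Cyp2a22 had 2128 reads at CT22, then 3927 at CT28, 1992 at CT34 and 1317 at CT40, a range of 3.09-fold (2.90 to 3.29). CT28 was high and CT40 low. The range without CT28 was 1.77-fold and without CT40 1.91-fold. Its neighbour Cyp2a12, a steroid hydroxylase, ranged 1.29-fold and was also highest at CT28, with 25521 reads against 19803 to 20765 in the other libraries. Cyp2f2 had 22680, 32817, 33308 and 41628 reads, lowest at CT22 and highest at CT40, a range of 1.67-fold; 15.1% of its exon bases lie under exons of the opposite strand, whose reads these libraries cannot separate. Cyp2s1, under the read minimum, had 5, 38, 11 and 36 reads, a range of 7.18-fold with a wide counting interval (2.82 to 23.4).

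Cyp2a4 is the female-biased copy of Cyp2a5 and hydroxylates testosterone; its mRNA differs from that of Cyp2a5 at few positions, and its upper value exceeded the lower by a factor of 1.38. It had 1914 reads at CT22, then 2158 at CT28, 3382 at CT34 and 1183 at CT40. The CT34 library was high, at the time when Cyp2a5 was lowest, and the range was 3.05-fold (2.86 to 3.27), or 2.41-fold in the upper values. Without CT34 it was 1.89-fold and without CT40 1.72-fold, both under the rule. Set against Cyp2a5 within each library, which leaves scaling out, Cyp2a4 came to 6.07 reads per 100 of Cyp2a5 at CT22 (5.79 to 6.36), then 5.74 at CT28 (5.50 to 6.0), 21.3 at CT34 (20.5 to 22.1) and 6.0 at CT40 (5.65 to 6.36). CT34 stood alone, and the other libraries lay within a narrow band of each other. Reads over the splice junctions gave 5.95, 5.66, 21.9 and 6.07 per 100, and the upper values 9.08, 8.13, 23.7 and 8.56. In introns Cyp2a4 held 101, 54, 103 and 85 reads, which came to 14.8, 7.77, 24.1 and 6.46 per 100 intron reads of Cyp2a5. In this intron ratio to Cyp2a5, CT34 was again the highest library, with CT22 nearer to it than in the exons. The scaled intron reads of Cyp2a4 itself were 106, 53.4, 105 and 81.0, with no excess at CT34 over CT22. Most of the intron reads of Cyp2a4 are shared between copies (upper over lower 3.76). The mRNAs have the same length of 1715 bases and GC contents of 50.3% and 48.9%.

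The other close pair of the cluster moved less. Cyp2b9 had 5818, 8202, 6795 and 7133 reads and Cyp2b13 4517, 5273, 2954 and 3823, both highest at CT28. Both are known as female-biased. Cyp2b9 came to 129 reads per 100 of Cyp2b13 at CT22 (124 to 134), then 156 at CT28 (150 to 161), 230 at CT34 (220 to 240) and 187 at CT40 (179 to 194). CT34 was again the library with the highest ratio, but here the other libraries spread as well. Over junctions the ratios were 104, 112, 172 and 117 per 100, and in introns 228, 213, 231 and 237, with no excess at CT34. Part of the intron reads are shared between copies (upper over lower 1.11 in Cyp2b9 and 1.41 in Cyp2b13).

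In the Cyp3a cluster on chromosome 5, with 8 members over 819 kb (mm9), 6 met the read minimum. Of these 6, 4 had a 2-fold range, against 12.7% of all genes. Among them Cyp3a41a, Cyp3a41b and Cyp3a44 were set apart, and the Cyp3a41 copies share nearly all their reads. The only one with few shared reads was Cyp3a11, which fell under the rule with the trend removed. Cyp3a11 had 74287 reads at CT22, then 37798 at CT28, 34257 at CT34 and 50698 at CT40, a range of 2.23-fold (2.20 to 2.25) with CT22 high, and 1.39-fold without CT22. Its mRNA has a GC content of 41.0%, and with the trend removed the values were 57793, 38238, 39902 and 55411, a range of 1.51-fold with CT22 and CT40 close together. The introns of Cyp3a11 held 1763, 2375, 1750 and 2608 reads, with no excess at CT22. Cyp3a25 had 8599, 7207, 6164 and 9287 reads, a range of 1.43-fold with CT22 highest after scaling, and 1.62-fold with CT40 highest once the trend was removed. Within libraries, Cyp3a11 came to 864 reads per 100 of Cyp3a25 at CT22 (845 to 884), then 524 at CT28, 556 at CT34 and 546 at CT40. Over junctions the ratios were 1167, 733, 806 and 981 per 100, with CT22 highest and CT40 next, and in introns 12.7, 15.4, 16.1 and 11.6, with no excess at CT22. The transcripts have GC contents of 41.0% and 40.2%. The one taken for Cyp3a25 is a non-coding RefSeq entry with 12 exons, where that of Cyp3a11 has 13.

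Introns of Cyp3a25 and Cyp3a59 were covered heavily and unlike the exons. Cyp3a25 held 13868, 15457, 10885 and 22440 intron reads, more than its exons did in every library. Reads on any exon outside the non-coding entry taken for Cyp3a25 would count as intron reads, and whether any did was not tested. Cyp3a59 held 766, 1206, 1145 and 2926 intron reads against 1260, 1105, 902 and 1516 exon reads. Both were highest at CT40 in introns, by 2.34-fold (2.19 to 2.51) over CT28 for Cyp3a59. Among junctions that no listed transcript explains, the most used lay in Cyp2d10 with 1001 reads, and the next in Cyp3a25 with 916. Over all members 827 such junctions with both ends in 1 gene held 10690 reads, beside 1590337 reads over 402 listed junctions.

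Cyp3a41a, Cyp3a41b and Cyp3a44 are known as female-specific, and all were highest at CT34. Cyp3a41a had 55 reads at CT22, then 115 at CT28, 388 at CT34 and 72 at CT40, a range of 6.87-fold (5.17 to 9.29). Cyp3a41b had 67, 89, 360 and 66 reads, a range of 5.83-fold (4.47 to 7.70). Nearly all reads of these copies are shared: the upper value exceeded the lower by a factor of 38.7 in Cyp3a41a and 41.3 in Cyp3a41b, and the Cyp3a41b upper reads were 2780, 4777, 13891 and 2615, with a range of 5.68-fold. The Cyp3a41a upper reads were nearly the same, with 2781, 4833, 14125 and 2634, so in the upper values the 2 copies are not independent observations. Cyp3a44 had 84, 71, 160 and 111 reads, a range of 2.32-fold (1.75 to 3.12). CT34 was the high library in the lower and in the upper values of all 3 genes, and in the introns of Cyp3a41b with 43, 81, 227 and 48 reads. Most intron reads of Cyp3a41b are shared between copies as well (upper over lower 7.36). For the 3 genes, removing the trend gave ranges of 10.8-, 8.24- and 2.77-fold. Without CT34 the ranges were 1.98-, 1.40- and 1.51-fold, all under the rule, and Cyp3a44 fell under it without CT28 as well, at 1.86-fold. Cyp3a16, below the read minimum and with an upper value 3.78 times the lower, had 34, 30, 60 and 37 reads, again with CT34 high.

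**Figure D4:**
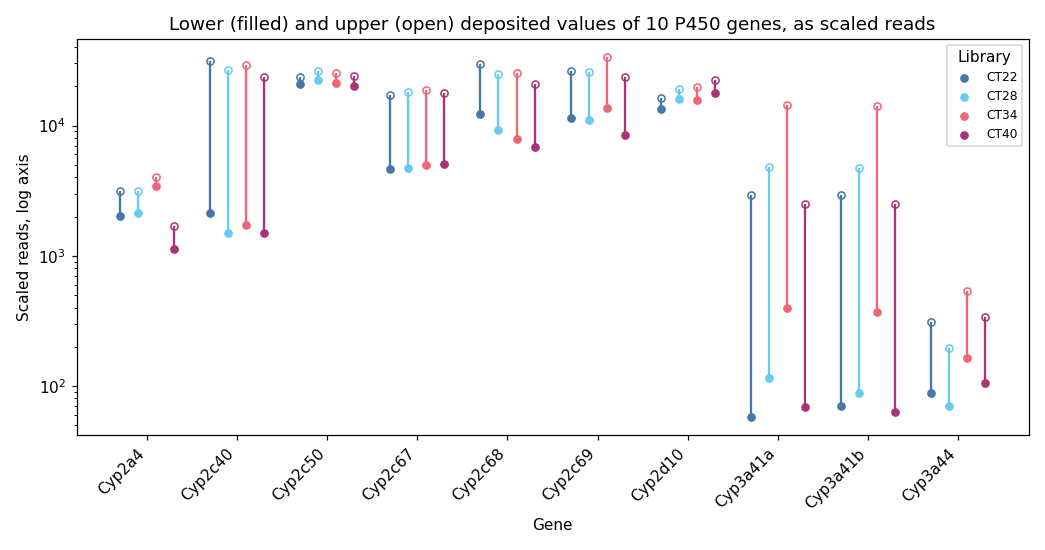
Scaled reads from the lower (filled) and upper (open) deposited values of the 10 members set apart for shared reads, on a log axis, coloured by library and joined by a line per gene and library. Cyp3a41a, Cyp3a41b, Cyp3a44 and Cyp2a4 have CT34 highest at both ends, and the distance between the ends is widest for Cyp3a41a and Cyp3a41b.

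Over the list of 12 female-biased P450s, 11 met the read minimum, 5 of these a 2-fold range, against 12.7% of all genes, and 5 were highest at CT34, against 20.4%: Cyp2a4, Cyp2c69, Cyp3a41a, Cyp3a41b and Cyp3a44. Of these 5, Cyp3a41a and Cyp3a41b share nearly all their reads. Cyp2b9, Cyp2b10, Cyp2b13 and Cyp2c39 were highest at CT28, so the list did not move as a block. Cyp2b10, Cyp2b13, Cyp2c38 and Cyp2c39 were lowest at CT34 as counted, Cyp2b10 and Cyp2b13 also with the trend removed. With the trend removed 6 of the 11 were highest at CT34, against 22%. Of the 4 male-biased P450s, Cyp2d9, Cyp2u1 and Cyp2f2 were highest at CT40 and Cyp2j5 at CT28, with a 2-fold range for Cyp2u1 only. With the trend removed all 4 were highest at CT40, against 31.0% of all genes. Markers of sex moved between the libraries. Xist, made from the inactive X chromosome of females, had 8648, 8219, 6090 and 7334 reads, and the Y-linked genes Ddx3y, Eif2s3y, Kdm5d and Uty together had 850, 700, 433 and 768. Reads of both kinds were present in every library, and after scaling the Y-linked sum was 889, 692, 441 and 732 and Xist 9040, 8120, 6201 and 6990. The 4 Y-linked genes were each lowest at CT34, where 5 of the 11 female-biased genes were highest, and Xist was lowest there too. Set against the Y-linked sum within each library, however, Xist was highest at CT34. The GC and length trend was not removed for the sex-linked genes. These genes were looked up after the P450 values were seen, and the part of the sex of the pooled animals in the result was not tested.

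The Cyp2c genes on chromosome 19 hydroxylate arachidonic acid, steroids and many drugs. Of 16 genes 13 met the read minimum and 1 had a 2-fold range, against 12.7% of all genes. That was Cyp2c55, a CAR- and PXR-induced gene, with 1043 reads at CT22, then 607 at CT28, 380 at CT34 and 628 at CT40. CT22 was high and CT34 low, 2.82-fold apart (2.50 to 3.18), but 1.93-fold with the trend removed, 1.55-fold without CT22 and 1.82-fold without CT34. Its introns, with 118, 99, 59 and 108 reads, were lowest at CT34 as well. Cyp2c29 had 26895, 31125, 23989 and 31079 reads, a range of 1.26-fold, and Cyp2c23, Cyp2c54 and Cyp2c38 ranged between 1.22- and 1.33-fold. The Cyp2c genes set apart for shared reads were Cyp2c50, Cyp2c69, Cyp2c68, Cyp2c67 and Cyp2c40. Cyp2c50 had 19789, 22785, 20820 and 20939 reads, a range of 1.13-fold. Cyp2c69 had 10853, 11239, 13363 and 8913, highest at CT34, and Cyp2c68 had 11630, 9342, 7739 and 7182, highest at CT22. Cyp2c67 had 4463, 4794, 4856 and 5346 reads, a range of 1.09-fold, but 1.68-fold with the trend removed, when CT22 was lowest. Cyp2c37 had 7942, 12642, 11156 and 9354 reads, lowest at CT22 and highest at CT28, a range of 1.5-fold that was 1.97-fold with the trend removed.

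Cyp2c70, which makes muricholic acids from chenodeoxycholic acid in mouse liver, differed widely between exons and introns. Its exons had 9895, 11988, 8906 and 7437 reads, a range of 1.67-fold. Its introns had 9823, 5489, 1943 and 2009 reads, so that CT22 held 5.19-fold (4.94 to 5.45) the scaled intron reads of CT34. Intron reads came to 99.3 per 100 exon reads at CT22, then 45.8 at CT28, 21.8 at CT34 and 27.0 at CT40.

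The Cyp2d cluster on chromosome 15 held 10 members over 424 kb (mm9). None of the 7 that met the read minimum had a 2-fold range, against 12.7% of all genes. Of the 7, 4 were highest at CT34, against 20.4% of all genes, 2 at CT40, near the 28.9% of all genes, and Cyp2d22 at CT28. Cyp2d26 had 14795 reads at CT22, then 29138 at CT28, 29264 at CT34 and 30525 at CT40. CT22 alone was low, 1.93-fold under CT34 (1.89 to 1.97), and without CT22 the range was 1.04-fold. Cyp2d40 and the pseudogene Cyp2d37-ps were highest at CT34, with ranges of 1.53- and 1.52-fold. Cyp2d9, a male-biased testosterone hydroxylase, had 17429, 18478, 14666 and 22196 reads, lowest at CT34 and highest at CT40. Cyp2d10, set apart for shared reads, had 12916, 16207, 15480 and 18542.

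The Cyp2j genes on chromosome 4 are known for the epoxidation of arachidonic acid. All 3 that met the read minimum were lowest at CT34, against 19.6% of all genes. Cyp2j9 had 324 reads at CT22, then 153 at CT28, 134 at CT34 and 201 at CT40, a range of 2.48-fold (2.02 to 3.06), 2.05-fold with the trend removed and 1.40-fold without CT22. Its introns held 149, 62, 51 and 112 reads, in the same order of libraries as the exons. Cyp2j6 had 1576, 1206, 975 and 1330 reads and Cyp2j5 11066, 11844, 9339 and 12259, with ranges of 1.66- and 1.23-fold.

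Outside the clusters, Cyp2u1, a fatty acid hydroxylase, had 151 reads at CT22, then 290 at CT28, 201 at CT34 and 506 at CT40, a range of 3.06-fold (2.54 to 3.69) with CT40 high, and 1.82-fold without CT40. Its introns peaked earlier, with 21, 150, 51 and 74 reads, highest at CT28. Cyp2r1, a vitamin D 25-hydroxylase, had 156, 129, 76 and 119 reads, a range of 2.11-fold (1.59 to 2.81). That range was 1.48-fold with the trend removed, 1.96-fold in the 3' part of the transcript, 1.65-fold without CT22 and 1.44-fold without CT34. Cyp1a2 had 30570, 39871, 27721 and 43666 reads, a range of 1.47-fold, higher at CT28 and CT40 than at CT22 and CT34. Its partners in family 1 were near absent: Cyp1a1 had 23, 16, 10 and 11 reads and Cyp1b1 3 to 7.

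Intron reads stand nearer to unspliced RNA than exon reads do. Over the 33 members with few shared reads the log2 ratio of CT22 to CT34 in introns went with that in exons at Pearson's r of 0.61 (Spearman's rho 0.53), and 27 of 33, or 81.8%, had the same direction, against 57.4% of all genes. For CT28 to CT40 the values were 0.44 and 0.38, with 22 of 33, or 66.7%, near the 62.0% of all genes. These are correlations across genes that share libraries, and genes are not independent replicates. Across all genes r was 0.48 and 0.53. The exon ratios here are as counted. With the GC and length trend removed, Cyp2a12, Cyp2c29, Cyp2c38, Cyp2c39, Cyp2c54, Cyp2c70, Cyp3a13 and Cyp3a25 changed exon direction and no longer matched their introns. Cyp3a59 changed so as to match. The excess over all genes at CT22 to CT34 was not recomputed with the trend removed. The library with the most intron reads was the library with the most exon reads in 19 of 43 members, or 44.2%, against 43.2% of all genes. Among the most abundant genes Cyp2e1 showed the difference plainly: its intron reads were 6659, 5517, 4701 and 11065, highest at CT40, while its exon reads were highest at CT28.

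**Figure D5:**
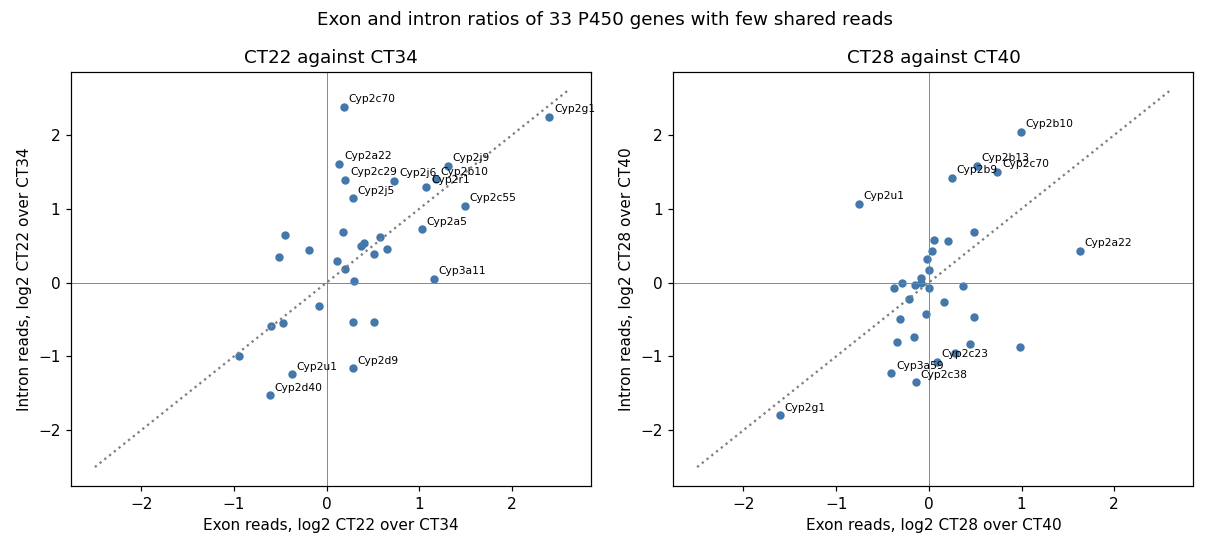
Log2 ratio of intron reads against log2 ratio of exon reads for the 33 members with few shared reads, CT22 over CT34 on the left and CT28 over CT40 on the right; the dotted line marks equal ratios and genes past 1 on either axis are named. Cyp2g1 lies near the line in both panels, while Cyp2c70 on the left and Cyp2u1 on the right lie far from it.

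Lists by known inducer and zone cut across the clusters. Of 10 CAR- or PXR-inducible genes 4 had a 2-fold range (Cyp2a5, Cyp2b10, Cyp2c55 and Cyp3a11), against 12.7% of all genes. Of the 10, 8 were higher at CT22 than at CT34, against 47.1%. Their median log2 ratio was 0.41, against -0.04 over all genes. With the trend removed 2 had a 2-fold range, against 8.19%, and 4 of 10 were higher at CT22, against 43.8%. The median was then -0.18, against -0.06 over all genes. The median range of the 10 was 1.47-fold, beside 1.45-fold over all genes. Of their receptors, Nr1i3, which encodes CAR, had 3061, 2727, 2689 and 2581 reads, a range of 1.30-fold, and Nr1i2, which encodes PXR, 2076, 1789, 1813 and 1563, a range of 1.46-fold. Of 8 pericentral genes 2 had a 2-fold range, against 12.7% of all genes, and 5 were highest at CT28, against 16.9%. With the trend removed 1 had a 2-fold range and 3 were highest at CT28, against 8.19% and 20%, while the single periportal gene on the list, Cyp2f2, was highest at CT40.

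Of 28 regulators of P450 genes 26 met the read minimum. Of these 26, 9 had a 2-fold range, against 12.7% of all genes, and with the trend removed 7 did, against 8.19%. Cebpb, a liver-enriched activator that also answers acute stress, had 132, 691, 1150 and 1259 reads, low at CT22 and 8.70-fold (7.26 to 10.5) higher at CT40; without CT22 its range was 1.76-fold. Bcl6, a repressor known to act on female-biased genes in male liver, had 399, 548, 2557 and 1398 reads, a range of 6.24-fold (5.62 to 6.95), with CT34 high, and 3.19-fold without CT34. Cux2, a factor known as female-specific in liver, had 173, 167, 88 and 561 reads, a range of 5.97-fold (4.76 to 7.56), with CT34 low and CT40 high; it was 3.24-fold without CT34 and 2.02-fold without CT40. Onecut1, which encodes HNF6, had 1840, 2666, 560 and 834 reads, a range of 4.62-fold (4.22 to 5.07). At CT34 the female-biased Cyp3a41 copies and Bcl6 were at their highest and Cux2 at its lowest. The female-biased Cyp2b10, Cyp2b13, Cyp2c38 and Cyp2c39 were at their lowest there. A link between these regulators and the P450 values was not tested.

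Of 16 genes for electron donors and heme supply 1 had a 2-fold range, against 12.7% of all genes. Alas1, the rate-limiting enzyme of heme synthesis in liver, had 20065 reads at CT22, then 20679 at CT28, 10577 at CT34 and 8225 at CT40, high in the early libraries by up to 2.68-fold (2.61 to 2.75), or 1.95-fold without CT40. Por, the oxidoreductase that passes electrons to every microsomal P450, had 16588, 19632, 14660 and 16533 reads, a range of 1.30-fold. Cyb5a, cytochrome b5, had 17972, 13093, 9951 and 10084, a range of 1.95-fold with CT22 high, and 1.31-fold with the trend removed. Cpox and Cyb5b ranged 1.80- and 1.70-fold. Among markers of other liver cells, 7 of 16 had a 2-fold range, against 12.7% of all genes, and 9 were highest at CT34, against 20.4%, the endothelial genes Kdr, Cdh5 and Oit3 among them. Without CT22 2 of the 16 had a 2-fold range and without CT34 3, and with the trend removed 10 were highest at CT34. The part of other cell types in the CT34 values of the P450 genes was not tested.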

How the data were processed

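RNA of 4 liver libraries was analysed, 1 per time, so ratios carry no test. The deposited feature tables give a lower and an upper value per transcript, exon and intron, with no stated unit; how the authors filled the 2 columns is not stated in the labels or headers used. The values behaved as RPKM: times length, they were whole multiples of 1 step per library for 99.65 to 99.73% of lower transcript values (within 0.05 read beyond rounding), which gave back reads. Junction files hold deposited read counts, found with RUM per the file headers. Coordinates are mm9, per the submitters' processing notes. The protocol in the labels names no step that marks strand.

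Of 115699 transcripts, 26702 matched a symbol through RefSeq. Each gene took its transcript with the highest mean lower value. Reads were scaled by TMM (edgeR 4.0.16, R 4.3.3), counts under 3 were set to 3, ratio intervals are exact conditional (Clopper-Pearson) 95% intervals, and range intervals do not allow for the choice of the highest and lowest library. Genes within 1 Mb formed clusters. Intron ratios needed 50 reads. The range and ratio steps were tested on simulated data. Named were all members with a 2-fold range, the 10 of highest mean RPKM, the 6 set apart with most reads and up to 4 genes of each other list; further members were named after their values were seen. The members and lists were chosen with earlier results of these data known. The trend removed was cubic in GC content and log length (GC content known for 99.6% of genes). Alternatives covered scaling, filters, upper values, transcript, 3' part, fold and libraries left out.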

Additional observations from a re-analysis of the deposited data

How the results depend on the processing

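The count of 13 members with a 2-fold range was 13 under scaling by total gene reads, by upper quartile and by median of ratios. It was 13 with the longest transcript too, and the share of all genes in these settings was 12.5% to 12.7%. The upper values gave 14 of 47 members (12.8% of all genes) and the 3' part 12 of 43 (15.8%). A mean of at least 20 reads gave 16 of 48 (17.5%) and no filter 19 of 60 (21.6%). Leaving out a library gave 9 without CT22 (3.31% of all genes) and 10 without CT40 (7.83%). In settings added after seeing the data it gave 11 without CT28 (11.6%) and 5 without CT34 (10.1%). At 1.5-fold the counts were 26 for the range (43.5% of all genes), 7 for lower at CT22 than CT34 (14.5%), 6 for higher at CT28 than CT40 (5.06%) and 3 for lower at CT28 (5.69%). Scaling by upper quartile gave 3 of 43 higher at CT28 than CT40 (Cyp2a5 and Cyp2b10 beside Cyp2a22), against 1.32% of all genes. No filter gave 2 of 60 lower at CT28 than CT40, against 2.33%. In an alternative added after seeing the data, removing the GC and length trend gave 3 of 41 higher at CT22 than CT34 (1.56%). Counting only members with few shared reads, also added then, gave 0 of 33 lower at CT22 than CT34 (3.96%). Of 294 single ratios recomputed for the named members, 217 stayed within the counting interval, 77 moved outside it and 0 of those past 2-fold changed direction; the causes of the moves were not tested. No paired analysis was possible because each time has 1 library. Ratios of Cyp2g1, Cyp2r1, Cyp3a44 and the Cyp3a41 copies rest on under 100 reads in at least 1 library.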
